A study of Mus musculus with 18 samples.

Results

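AML12 is a hepatocyte line from mice that carry a human transforming growth factor alpha transgene, and insulin was compared with vehicle in 6 of the 18 libraries of the series, 3 for each treatment. Of 15579 listed genes, 10713 averaged 1 TPM or more across the 6 libraries and were all examined, where TPM is the share of all transcripts that a gene takes, corrected for its length. The rule used the mean level and not the difference between the treatments, but a low gene could pass it through 1 treatment alone. Among genes reported below as higher with insulin, Gm2260, Gm2274, Wfdc3, Sdr39u1 and Gm2506 had vehicle means of 0.12, 0.12, 0.51, 0.72 and 0.81 TPM. Among the lower ones, Zfp973 and Gm52523 had insulin means of 0.25 and 0.85 TPM. Among the genes reported below as parting insulin library 3 from the others, Tmem255a, Gm2446, Gm2436 and Gstp2 had vehicle means of 0.06, 0.35, 0.35 and 0.34 TPM. Just inside the limit lay Spef1 at a mean of 1.0033 TPM, and just outside it Cenpi at 0.99667 TPM. The cells carried the genotype that the labels call WT, and were grown in 10% serum with 10 µg/ml insulin and 40 ng/ml dexamethasone, so that the vehicle cells had also met insulin before the experiment. After a night in medium free of serum, they received vehicle or 10 nM insulin for 24 h. Parallel cells received 600 µM recombinant mouse serum albumin (rMSA), with or without 10 nM insulin, 3 libraries each, and gave a second comparison of insulin that shared no library with the first. The livers that make up the rest of the series were not used here. Only RNA with an integrity number above 8.5 was sequenced.

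Insulin binds its receptor on hepatocytes and acts through insulin receptor substrates, PI3K and AKT. AKT keeps the transcription factor FOXO1 out of the nucleus, which lowers genes of glucose production and the receptor substrate gene Irs2. Insulin is also known to raise the transcription factor SREBP1c, which drives fatty acid synthesis, whereas its relative SREBP2 drives cholesterol synthesis and is held back by sterols through the protein encoded by Insig1.

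Insulin libraries 1 and 2 stood apart from insulin library 3. Across the tested genes, the median log2 difference from the mean of the vehicle libraries was -0.33 in insulin library 1, -0.60 in insulin library 2 and 0.03 in insulin library 3. Genes with transcripts over 5000 bases, 2318 in number, had medians of -0.66, -1.05 and 0.03, and the 1200 genes with transcripts under 1500 bases had medians of 0.11, 0.14 and 0.02. Cytosolic ribosomal protein genes held a TPM share of 35.1%, 37.9% and 28.1% in the 3 insulin libraries and of 27.9% to 29.3% in the vehicle libraries, a difference that did not pass an exact permutation test (two-sided p = 0.30, n = 3 and 3, smallest possible p 0.10). Across 10713 genes, the differences from vehicle correlated at r = 0.858 between insulin libraries 1 and 2, at 0.202 between 1 and 3 and at 0.161 between 2 and 3, with the vehicle mean shared by all 3. The part of transcript length in the results below was not tested beyond the values given with the length trend removed. Fewer transcripts per cell and fewer cells that express a gene cannot be told apart in these bulk libraries.

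**Figure D1:**
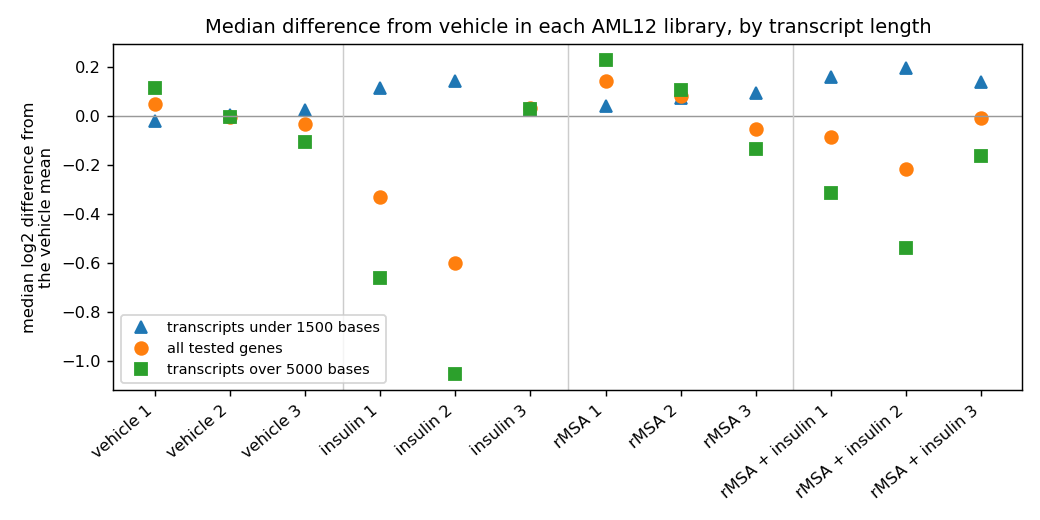
Median log2 difference from the mean of the vehicle libraries (vertical axis) in each of the 12 AML12 libraries (horizontal axis), for all 10713 tested genes (circles), for 1200 genes with transcripts under 1500 bases (triangles) and for 2318 genes with transcripts over 5000 bases (squares). Insulin libraries 1 and 2 lie lowest for long transcripts, at -0.66 and -1.05, while insulin library 3 lies at 0.03.

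Some hepatocyte markers were present and others absent. The hepatocyte regulator gene Hnf4a lay between 51.0 and 110 TPM and Ttr, which encodes transthyretin, between 138 and 268 TPM, whereas Alb reached only 48.2 to 93.9 TPM, and Cps1, Cyp2e1 and Tdo2 stayed at or under 0.21 TPM. Of 24 listed hepatocyte markers in the table, 17 were at 1 TPM or more in all 6 libraries. Together they summed to 4211 to 4562 TPM with vehicle and 4512 to 4951 TPM with insulin. Most of that sum came from the keratin genes Krt8 at 1180 to 1359 TPM and Krt18 at 1811 to 2590 TPM. Of 18 tested hepatocyte markers, 3 had all insulin values above vehicle and 4 below, beside 4.34% and 11.7% of all tested genes. Hnf4a measured 110, 105 and 108 TPM with vehicle and 71.8, 51.0 and 100 TPM with insulin. Biliary markers summed to 1823 to 1997 TPM with vehicle and 1767 to 2317 TPM with insulin, mostly through the keratin gene Krt19 at 1181 to 1804 TPM. Of the fibroblast and stellate cell markers only Vim reached 1 TPM, and Col1a1 did not exceed 0.10 TPM. The pan-leukocyte marker Ptprc did not exceed 0.04 TPM and the endothelial marker Cdh5 did not exceed 0.06 TPM. Macrophage markers, mostly Cd14, summed to 182 to 194 TPM with vehicle and 121 to 200 TPM with insulin, and endothelial markers to 2.07 to 3.00 TPM and 2.58 to 3.60 TPM.

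No gene passed the test of insulin against vehicle. With limma on log2(TPM + 1), 0 of 10713 genes had an adjusted p under 0.05 and the smallest adjusted p was 0.318. At an unadjusted p under 0.05 there were 142 genes higher with insulin (1.33% of the tested genes) and 558 lower (5.21%). A fit of all 12 AML12 libraries also gave 0 genes, with a smallest adjusted p of 0.116 and 3939 genes at an unadjusted p under 0.05, and without insulin library 3 the count was 384 genes higher and 5380 lower. The differences below are therefore given as values per library. The labels do not say whether the 3 libraries of a treatment were grown apart, so p-values measure only the spread between these libraries, which may be technical.

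Most genes of cholesterol synthesis lay below vehicle in all 3 insulin libraries, though by different amounts. Of 24 tested genes of this pathway and its regulator SREBP2, 22 had all 3 insulin values below all 3 vehicle values, which 11.7% of all tested genes did, and 0 had all 3 above, which 4.34% of all tested genes did. None of the 24 passed the test (limma adjusted p of at least 0.318). The median of the list was lower than that of all tested genes by a log2 difference of 0.417 in insulin library 1, 0.911 in insulin library 2 and 0.453 in insulin library 3. In insulin library 3, where the tested genes as a whole hardly moved, 24 of 24 members lay below every vehicle library, against 17.8% of all tested genes. Leaving out 1 insulin library at a time put that median between -0.43 and -0.69 relative to all tested genes. The list's median transcript length was 3492 bases, beside 3360 bases for all tested genes. With the length trend removed, the list's median minus that of all tested genes was -0.57, against -0.62 before. The part of length was not tested further. The 2 members whose groups overlapped were Fdps and Tm7sf2.

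Early steps of the pathway were lower in every insulin library. Hmgcs1 encodes the synthase that makes HMG-CoA, and measured 121, 108 and 95.2 TPM with vehicle and 54.9, 23.1 and 79.1 TPM in insulin libraries 1 to 3. Its log2 fold change was -1.19, and all insulin values lay below all vehicle values. Mvd, the mevalonate diphosphate decarboxylase, was tight in both groups, with 72.7, 72.6 and 72.6 TPM with vehicle and 53.3, 49.3 and 46.6 TPM with insulin. Here insulin library 3 was the lowest of all, in contrast to most other members. Acat2, the cytosolic thiolase that supplies acetoacetyl-CoA, was similar with 73.1, 67.8 and 77.5 TPM against 54.3, 40.9 and 42.0 TPM.

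Idi1 and Lss were the members on which all 3 insulin libraries agreed by at least 1.5-fold. Idi1 (gene 319554, chr13:8885606-8892396 on GRCm38) encodes isopentenyl diphosphate isomerase, which prepares the building block of the sterol chain. It measured 16.2, 14.1 and 12.3 TPM with vehicle and 5.10, 0.89 and 7.82 TPM with insulin (log2 fold change -1.70 with an SE of 0.55, adjusted p 0.318 in limma). Lss (gene 16987, chr10:76531565-76557139) encodes lanosterol synthase, which closes the sterol rings. Its TPM values were 48.2, 43.7 and 38.7 with vehicle and 19.4, 13.3 and 28.3 with insulin (log2 fold change -1.12 with an SE of 0.27, adjusted p 0.318 in limma). Insig1 (gene 231070, chr5:28071412-28078662), the sterol sensor partner that holds SREBP in the endoplasmic reticulum and is itself an SREBP target, agreed as well. It measured 123, 109 and 97.0 TPM with vehicle and 45.3, 15.1 and 71.5 TPM with insulin (log2 fold change -1.54 with an SE of 0.52, adjusted p 0.318 in limma). In all 3 genes insulin library 2 was the lowest and insulin library 3 the nearest to vehicle, yet below each vehicle library.

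Several later steps were also lowest in insulin library 2, but Fdps was not. Sqle, the squalene epoxidase, measured 184, 175 and 162 TPM with vehicle and 93.3, 46.8 and 142 TPM with insulin. Cyp51, the sterol demethylase, measured 122, 113 and 111 TPM against 67.8, 28.8 and 81.0 TPM. Msmo1, the sterol methyl oxidase, measured 320, 283 and 275 TPM against 176, 69.9 and 218 TPM, and Nsdhl, the next enzyme of demethylation, 198, 177 and 185 TPM against 121, 59.9 and 126 TPM. Srebf2 itself stood at 155, 146 and 133 TPM with vehicle and 71.8, 58.0 and 129 TPM with insulin, with library 3 only just below the lowest vehicle value. Fdps, the farnesyl diphosphate synthase, was the most abundant member and measured 914, 947 and 981 TPM against 822, 952 and 788 TPM, so that its groups overlapped.

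**Figure D2:**
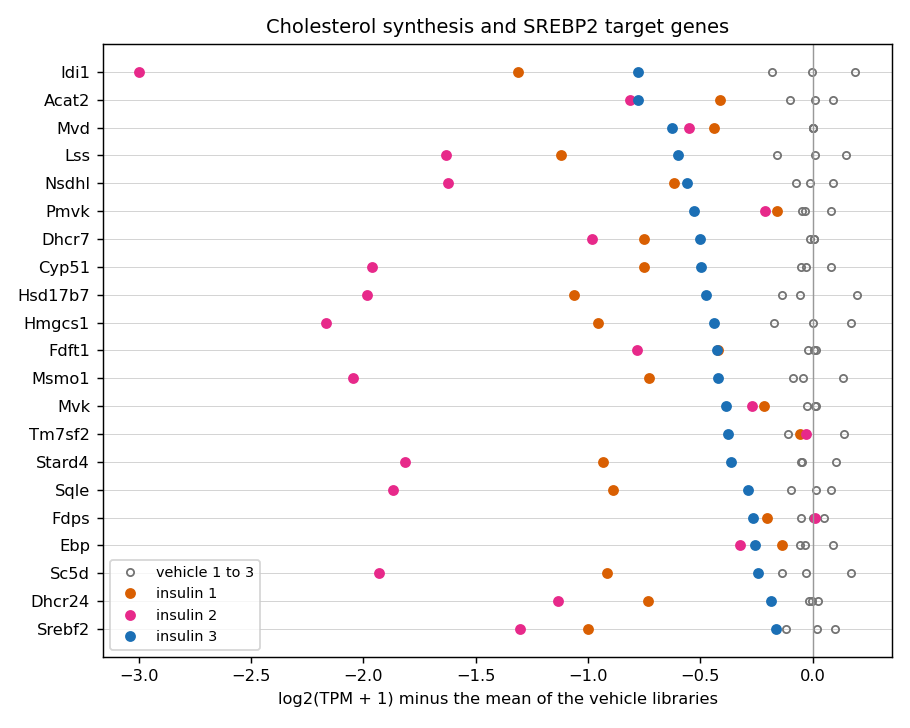
Log2(TPM + 1) minus the mean of the 3 vehicle libraries (horizontal axis) for 21 of the 24 tested genes of cholesterol synthesis and SREBP2 targets (rows, ordered by insulin library 3), with 1 point per library. Insulin library 3 lies below all vehicle points in every gene shown, and the groups overlap only in Fdps and Tm7sf2.

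RefSeq promoter windows are given for Hmgcs1 and Idi1, genes of cholesterol synthesis, and for Insig1, which was counted in the list of fatty acid synthesis and SREBP1 targets. The windows are the 250 bases before the start on GRCm38, read 5′ to 3′ along the gene's strand. Capitals mark the sterol regulatory element searched as TCACNCCAC or its reverse complement GTGGNGTGA, and the CCAAT box, the site of NF-Y, as CCAAT or ATTGG. The 2 motifs do not overlap in these windows.
Hmgcs1, chr13:119690101-119690350, plus strand: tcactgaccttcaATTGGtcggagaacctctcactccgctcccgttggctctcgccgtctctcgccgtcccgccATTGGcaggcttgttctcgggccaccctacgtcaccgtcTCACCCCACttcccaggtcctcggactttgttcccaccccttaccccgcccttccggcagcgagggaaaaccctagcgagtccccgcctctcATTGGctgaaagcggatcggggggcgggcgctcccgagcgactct
Idi1, chr13:8885356-8885605, plus strand: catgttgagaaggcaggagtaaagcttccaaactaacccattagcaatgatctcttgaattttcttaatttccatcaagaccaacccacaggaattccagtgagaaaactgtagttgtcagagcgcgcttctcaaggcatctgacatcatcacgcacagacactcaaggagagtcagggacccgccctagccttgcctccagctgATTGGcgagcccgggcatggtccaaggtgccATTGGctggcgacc
Insig1, chr5:28071162-28071411, plus strand: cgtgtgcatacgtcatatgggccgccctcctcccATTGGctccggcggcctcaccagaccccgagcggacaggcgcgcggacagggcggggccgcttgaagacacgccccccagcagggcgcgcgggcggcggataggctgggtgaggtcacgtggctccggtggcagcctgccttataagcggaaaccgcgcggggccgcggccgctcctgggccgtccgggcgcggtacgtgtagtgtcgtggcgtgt
The Hmgcs1 window held 1 sterol regulatory element, which begins 137 bases before the start, and 3 CCAAT boxes. The Idi1 window held 2 CCAAT boxes and the Insig1 window 1, and neither held the element in these letters. Of the 24 genes on the cholesterol list, 16 had a promoter in the RefSeq table, with 19 windows in all. Of those windows, 1 held the element (5.26%) and 15 held a CCAAT box (78.9%). Among all 32851 windows in the table, 1.05% held the element and 33.8% a CCAAT box. These matches describe letters and not binding.

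Fatty acid synthesis, the other branch under SREBP, was less even. Of 23 tested genes of fatty acid synthesis and SREBP1 targets, 11 had all 3 insulin values below all vehicle values (11.7% of all tested genes). In 1 gene all 3 lay above (4.35%, beside 4.34% of all tested genes). Insig1 was among the 11 lower genes. The list's median minus that of all tested genes was -0.27, -0.60 and -0.09 in insulin libraries 1 to 3, and 12 of the 23 lay below every vehicle library in insulin library 3. Fasn, the fatty acid synthase, measured 97.0, 95.1 and 91.5 TPM with vehicle and 47.1, 41.3 and 74.7 TPM with insulin. Acly, which makes cytosolic acetyl-CoA from citrate, measured 125, 115 and 101 TPM against 52.2, 20.4 and 94.3 TPM, and Scd1, the desaturase, 386, 350 and 299 TPM against 170, 87.2 and 277 TPM. The groups of these 3 genes did not overlap. Srebf1 measured 140, 138 and 126 TPM against 88.4, 61.9 and 129 TPM, with insulin library 3 among the vehicle values. Angptl8, a secreted protein of liver and fat that insulin is known to raise, was the member with all insulin values above vehicle, at 11.4, 11.4 and 9.82 TPM against 15.6, 25.4 and 11.8 TPM.

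Textbook targets of FOXO1 were low in insulin libraries 1 and 2 and near vehicle in insulin library 3. Irs2 measured 39.1, 34.3 and 28.3 TPM with vehicle and 13.6, 9.44 and 33.9 TPM with insulin, and its groups overlapped. Insr, the insulin receptor gene, measured 11.5, 9.29 and 8.41 TPM against 6.24, 3.95 and 9.70 TPM, and overlapped too. Selenop, which encodes the secreted selenoprotein P, behaved alike with 1425, 1204 and 1017 TPM against 542, 131 and 1038 TPM. Of 24 tested genes on the list of FOXO targets lowered by insulin, 4 had all insulin values below all vehicle values (16.7%, beside 11.7% of all tested genes) and 0 above. Those 4 were Trib1, Ccng2, Pink1 and Lpin1. In Lpin1, a phosphatidate phosphatase gene, the values were 19.4, 17.7 and 15.1 TPM against 7.26, 5.02 and 13.7 TPM (log2 fold change -1.02, adjusted p 0.318 in limma). The list's median minus that of all tested genes was -0.29, -0.66 and -0.06 in insulin libraries 1 to 3. Its median transcript length was 4257 bases, beside 3360 bases for all tested genes, and Irs2 and Insr have transcripts of 6323 and 9355 bases. All tested genes with transcripts over 5000 bases had median differences from vehicle of -0.66, -1.05 and 0.03 in the same libraries. The part of length in the FOXO list was not tested. The genes of glucose production Pck1, the growth factor binding protein gene Igfbp1, Pdk4, Txnip and Hk2 lay under the limit of 1 TPM, with Pck1 at or under 0.05 TPM in all 6 libraries. G6pc and Ppp1r3c were not analysed here.

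Growth genes that insulin can raise did not lie above vehicle in all 3 libraries. Myc measured 103, 108 and 93.1 TPM with vehicle and 51.1, 34.2 and 118 TPM with insulin. Ccnd1, which encodes cyclin D1, measured 216, 196 and 189 TPM against 124, 48.4 and 194 TPM. Egr1, an immediate early gene, measured 6.00, 4.99 and 4.08 TPM against 2.35, 1.31 and 5.92 TPM. In each of the 3 genes insulin libraries 1 and 2 lay below every vehicle library and insulin library 3 did not. Most genes did the same, since 74.7%, 74.9% and 17.8% of all tested genes lay below every vehicle library in insulin libraries 1 to 3.

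Over all tested genes, 18 were higher (0.168%) and 13 lower (0.121%) with insulin by at least 1.5-fold in each of the 3 insulin libraries, with no overlap between the groups. At 2-fold in each library there were 2 higher genes (0.0187%), H4bc24 and Car6, and 1 lower gene (0.00933%), Zfp966. The folds were taken on TPM + 1 against the mean log2 of the vehicle libraries, and all 31 genes had a limma adjusted p of 0.318. Since the median of all tested genes moved by -0.33, -0.60 and 0.03, the counts depend on scaling. They were 40 higher and 5 lower with the medians centred, and 6 higher and 22 lower with the length trend removed. Under all 5 rescalings tried, the higher genes that stayed were Car6, Agt, Nupr1, Sdr39u1, H4bc24 and Gm2506, and the lower genes that stayed were Insig1, Idi1, Lss, Zfp966 and H2bc23. No transcript length was at hand for Gm2506, Gm38481 and Gm52523, so removing the length trend left their values unchanged. That rescaling therefore says nothing about Gm2506.

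Several genes of the higher group encode secreted proteins. Car6 (gene 12353, chr4:150187015-150201135 on GRCm38), the secreted carbonic anhydrase, measured 3.36, 3.00 and 3.47 TPM with vehicle and 7.66, 9.86 and 13.5 TPM with insulin (log2 fold change 1.38 with an SE of 0.23, adjusted p 0.318 in limma). Agt (gene 11606, chr8:124556587-124569706), which encodes angiotensinogen, measured 8.43, 6.87 and 4.98 TPM against 13.2, 19.2 and 24.7 TPM (log2 fold change 1.35 with an SE of 0.28, adjusted p 0.318 in limma). In both genes insulin library 3, the one nearest to vehicle in most genes, was the highest. Gc, the vitamin D binding protein, measured 79.5, 63.1 and 62.6 TPM with vehicle and 108, 103 and 166 TPM with insulin, and again library 3 was highest. Try5, a trypsin, measured 17.0, 19.7 and 17.5 TPM against 35.6, 63.8 and 63.9 TPM, but it belongs to a family of like copies among which reads may be shared. Wfdc3, a whey acidic protein family member, was near 1 TPM, at 0.25, 0.59 and 0.70 TPM against 1.6, 3.26 and 3.04 TPM. Once the length trend was removed, Gc, Try5 and Wfdc3 no longer agreed at 1.5-fold in each insulin library, while Car6 and Agt did. Of 15 tested apolipoprotein and secreted liver protein genes, 4 had all insulin values above vehicle (Agt, Serpina1a, Serpina1b and Serpina1d, beside 4.34% of all tested genes) and 0 below. The Serpina1 genes are near copies of each other. The list's median difference from vehicle was 0.29, 0.21 and 0.36 in insulin libraries 1 to 3.

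Stress and detoxification genes were also among the higher ones. Nupr1 (gene 56312, chr7:126623246-126625470), a chromatin protein induced by cell stress, measured 163, 181 and 167 TPM with vehicle and 287, 559 and 306 TPM with insulin (log2 fold change 1.10 with an SE of 0.25, adjusted p 0.318 in limma). Mt2, a metallothionein that binds zinc and responds to glucocorticoids, measured 484, 524 and 604 TPM against 878, 1412 and 915 TPM. Gsta1, a glutathione transferase, measured 28.4, 26.9 and 26.5 TPM against 42.2, 51.5 and 56.5 TPM, and Akr1b7, an aldose reductase relative, 4.31, 3.93 and 3.09 TPM against 7.12, 7.47 and 11.5 TPM. The insulin values of each lay above every vehicle value. With the length trend removed, Nupr1 still agreed at 1.5-fold in each insulin library, but Mt2, Gsta1 and Akr1b7 did not. Of 28 tested genes of the integrated stress response, 5 had all insulin values above vehicle and 2 below, beside 4.34% and 11.7% of all tested genes. Besides Nupr1 those above were Atf5, Ddit3, Psph and Eif4ebp1. Ddit3, which encodes CHOP, measured 106, 140 and 115 TPM against 150, 282 and 176 TPM. The list's median difference from vehicle was -0.25, -0.30 and 0.19 in insulin libraries 1 to 3, beside -0.33, -0.60 and 0.03 for all tested genes. In these libraries 19, 17 and 3 of the 28 lay below every vehicle library, and 6, 11 and 19 lay above.

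Small mitochondrial proteins formed a further part of the higher group. Cox6a2, a subunit of cytochrome c oxidase typical of muscle, measured 3.43, 3.92 and 2.95 TPM with vehicle and 7.49, 12.5 and 9.96 TPM with insulin. Cox7a1, a second such subunit, measured 3.85, 3.90 and 6.71 TPM against 9.98, 12.1 and 7.98 TPM, and Chchd10, an intermembrane space protein, 44.3, 54.6 and 55.4 TPM against 84.3, 181 and 94.4 TPM. These 3 did not agree at 1.5-fold once the length trend was removed, and Cox6a2 and Cox7a1 have transcripts of only 680 and 485 bases. Of 81 tested nuclear genes of the respiratory chain and ATP synthase, 17 had all insulin values above vehicle and 2 below, beside 4.34% and 11.7% of all tested genes. The list's median minus that of all tested genes was 0.59, 0.84 and 0.00 in insulin libraries 1 to 3, and its median transcript length was 1088 bases.

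Other genes of the higher group need care. H4bc24, a histone H4 gene, measured 0, 7.79 and 0.31 TPM with vehicle and 11.5, 9.32 and 8.58 TPM with insulin, so that 1 vehicle library came close to the insulin values. Sdr39u1, a short-chain dehydrogenase, measured 0.19, 0.25 and 1.72 TPM against 7, 12.6 and 1.98 TPM, where insulin library 3 lay just above a vehicle library. Gm2260 and Gm2274 had the same values in all vehicle and insulin libraries but insulin library 2, and may share reads. Both lay between 0 and 0.20 TPM with vehicle and at 0.84 and 1.19 TPM in insulin libraries 3 and 1. Only in insulin library 2 were they high, at 8.98 TPM for Gm2260 and 7.13 TPM for Gm2274. Gm2506 measured 0.53, 0.87 and 1.03 TPM against 2.25, 5.64 and 3.10 TPM. Cdsn, the adhesion protein corneodesmosin, was clear of vehicle in every library, with 16.8, 17.7 and 15.8 TPM against 25.7, 66.9 and 44.6 TPM. Cdsn, Gm2260 and Gm2274 did not agree at 1.5-fold with the length trend removed.

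The lower group held 10 genes besides Insig1, Idi1 and Lss. Cdh13, which encodes T-cadherin, measured 12.0, 11.0 and 12.3 TPM with vehicle and 5.62, 4.05 and 5.93 TPM with insulin. Slc17a1, a phosphate transporter, measured 12.3, 9.13 and 9.79 TPM against 5.11, 1.94 and 5.35 TPM. Nox4, an NADPH oxidase, measured 7.04, 5.15 and 4.97 TPM against 2.60, 0.83 and 3.37 TPM, and Ccn5, a matricellular protein, 3.05, 3.45 and 2.89 TPM against 1.55, 1.20 and 1.61 TPM. The insulin values of these 4 genes lay below every vehicle value, but none of the 4 agreed by 1.5-fold once the medians were centred. Hsd3b2, a steroid dehydrogenase with like copies, measured 5.16, 2.89 and 4.39 TPM against 2.27, 0.54 and 1.93 TPM. The zinc finger genes Zfp966 and Zfp973 belong to a cluster of like copies on chromosome 2. Zfp966 measured 25.5, 18.0 and 14.9 TPM with vehicle and 4.61, 0 and 4.98 TPM with insulin, and Zfp973 5.81, 1.41 and 1.28 TPM against 0.76, 0 and 0 TPM. H2bc23, a histone H2B gene, was listed at 0 in insulin libraries 1 and 2 and at 8.17 TPM in insulin library 3, beside 19.2, 8.68 and 18.9 TPM with vehicle. The predicted genes Gm38481 and Gm52523 measured 87.6, 75.3 and 77.7 TPM against 44.6, 16.7 and 49.6 TPM, and 2.35, 3.01 and 1.55 TPM against 1.04, 0.44 and 1.06 TPM.

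**Figure D3:**
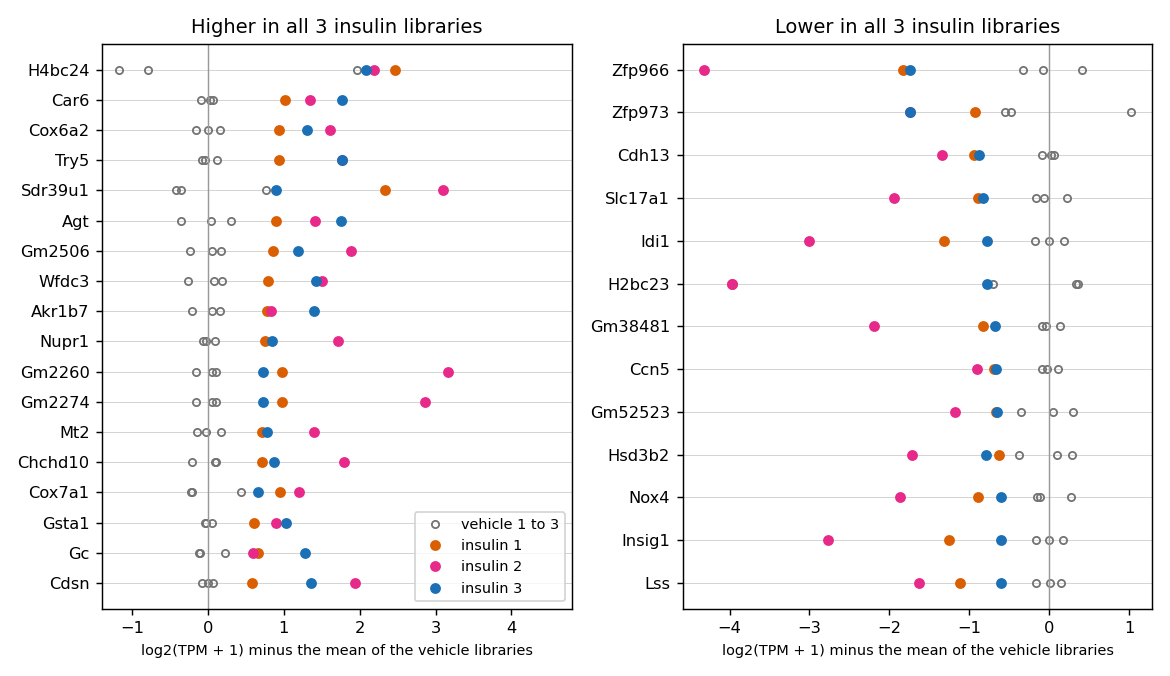
Log2(TPM + 1) minus the mean of the 3 vehicle libraries (horizontal axis) for the 18 genes higher and the 13 genes lower by at least 1.5-fold in every insulin library (rows), with 1 point per library. Vehicle points of H4bc24, Sdr39u1 and H2bc23 lie close to insulin library 3, and the points of insulin libraries 1 and 2 in H2bc23 and of 2 and 3 in Zfp973 coincide because these values are 0 TPM.

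Insulin library 3 taken alone against the 3 vehicle libraries gave 9 genes higher and 4 lower at an adjusted p under 0.05 in limma, where the lone library is assumed to vary like the vehicle libraries. These 13 genes were chosen after their values were seen. The higher ones were Lcn2, Try5, Cdsn, Car6, Saa3, Gsta1, Nupr1, Gc and Cd74, and the lower ones Ptgds, Mvd, Acat2 and S100a8. Lcn2, an acute phase protein that binds siderophores, measured 233, 235 and 207 TPM with vehicle and 212, 874 and 612 TPM with insulin, so that insulin library 1 lay among the vehicle values. Saa3, an acute phase apolipoprotein, measured 166, 152 and 141 TPM against 188, 478 and 316 TPM, and its groups did not overlap. Cd74, the invariant chain of MHC class II, measured 2.59, 2.46 and 1.74 TPM against 3.68, 16.4 and 10.3 TPM.

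Gene lists of housekeeping functions split by library. Cytosolic ribosomal protein genes, 83 tested, had 9 with all insulin values above vehicle and 2 below, and their median minus that of all tested genes was 0.58, 0.96 and -0.08 in insulin libraries 1 to 3. Mitochondrial ribosomal proteins had 13 of 75 above and 1 below, and the proteasome 8 of 35 above and 1 below, beside 4.34% and 11.7% of all tested genes. In insulin library 2 alone, 32 of the 75 lay below every vehicle library and 36 above, and of the 35, 22 lay below and 11 above. The median transcript lengths of the cytosolic ribosomal, mitochondrial ribosomal and proteasome lists were 1059, 1884 and 1819 bases, beside 3360 bases for all tested genes. Insulin signaling genes had 1 of 37 above and 2 below. Glycolysis and glucose uptake genes had 1 of 24 above, Gapdh with 5466, 5644 and 5875 TPM against 6749, 10629 and 6650 TPM, and 4 below. Gluconeogenesis had 1 of 11 above and 1 below. Interferon-stimulated genes had 2 of 19 above and 8 below, among them Ifit3b with 32.5, 25.9 and 30.4 TPM against 19.9, 10.7 and 14.2 TPM. None of these lists held a gene that passed the test.

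**Figure D4:**
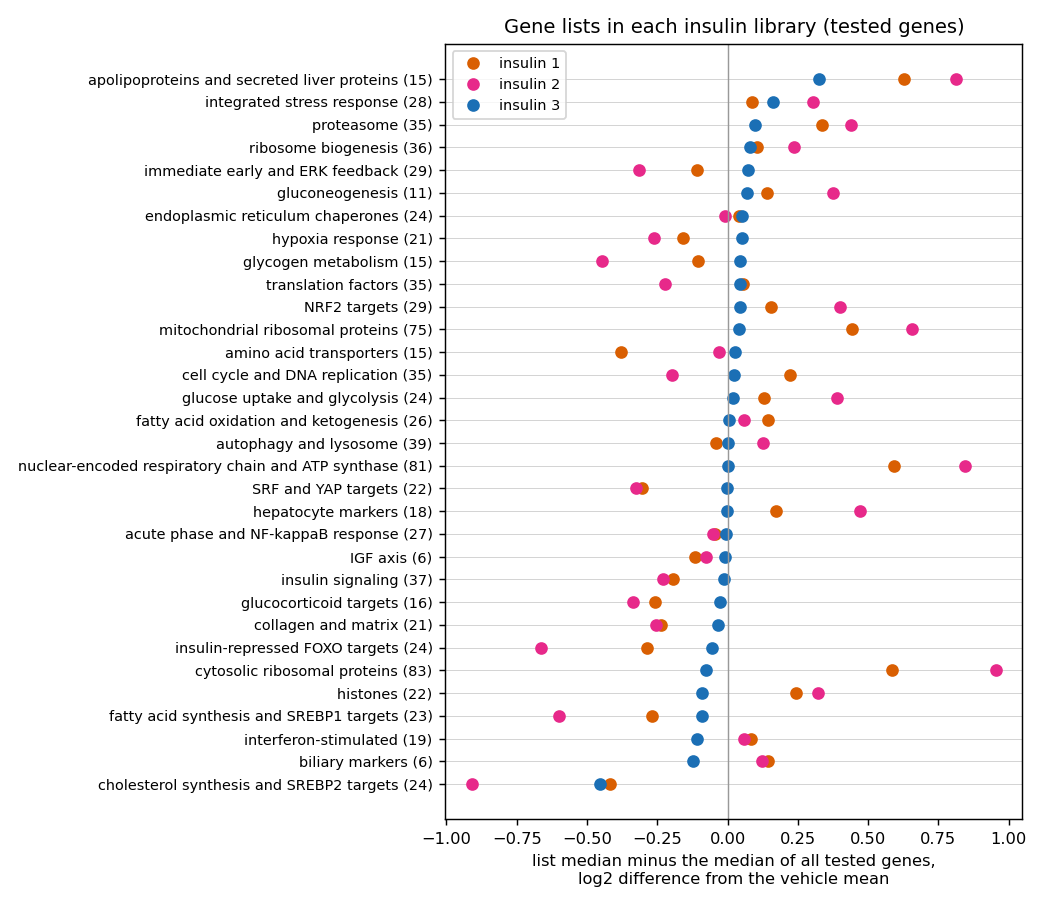
Median of each gene list minus the median of all tested genes (horizontal axis, log2 difference from the vehicle mean) in insulin libraries 1, 2 and 3 (colors), with the number of tested genes in parentheses and lists ordered by insulin library 3. Cholesterol synthesis lies lowest in library 3 at -0.45 and secreted liver proteins highest at 0.33, while ribosomal proteins are at 0.58 and 0.96 in libraries 1 and 2 and at -0.08 in library 3.

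The second set of libraries, rMSA + insulin against rMSA, gave 1287 genes higher (12.0%) and 3302 lower (30.8%) at an adjusted p under 0.05 in limma, with a median log2 fold change of -0.15 over all tested genes. Of the 18 genes higher in every insulin library without rMSA, 16 were higher here (34.4% of all tested genes), 12 passed the test and 9 were higher by 1.5-fold in each library, as were 0.980% of all tested genes. Of the 13 lower genes, 13 were lower here (65.6% of all tested genes), 8 passed the test and 5 were lower by 1.5-fold in each library, as were 5.47% of all tested genes. The number of genes that passed, 4589 in all, fell to 1812 without rMSA library 1, 1627 without rMSA library 2, 2283 without rMSA + insulin library 1 and 410 in the fit of 12 libraries. Among the 31 agreeing genes the log2 fold change was greatest in Car6, with 1.31, 2.65 and 0.56 TPM with rMSA and 13.6, 22.4 and 21.9 TPM with rMSA + insulin (log2 fold change 3.07, limma adjusted p = 0.00169), followed by Cdsn with 6.21, 9.38 and 5.83 TPM against 44.5, 55.8 and 50.5 TPM (log2 fold change 2.67, limma adjusted p = 0.000442). Nupr1 rose from 180, 191 and 177 TPM to 623, 763 and 670 TPM (log2 fold change 1.90, limma adjusted p = 9.85e-05), and Gsta1 from 49.99, 55.8 and 43.0 TPM to 195, 238 and 237 TPM (log2 fold change 2.15, limma adjusted p = 0.00028). Insig1 fell from 97.9, 84.7 and 75.1 TPM to 34.5, 24.0 and 38.0 TPM (log2 fold change -1.41, limma adjusted p = 0.00309), and Idi1 from 20.1, 17.0 and 13.3 TPM to 6.73, 4.92 and 8.65 TPM (log2 fold change -1.21, limma adjusted p = 0.00694). Lss, with a log2 fold change of -0.38, did not pass (limma adjusted p = 0.0871). Cox7a1, Wfdc3, Gm2260, Gm2274 and Gm2506 had log2 fold changes of 0.01, 0.25, 0.07, -0.04 and -0.19 with rMSA and did not pass either. For H4bc24, Zfp966, H2bc23, Hsd3b2 and Zfp973 they were 1.51, -1.86, -1.47, -0.46 and -0.31. These genes did not pass (limma adjusted p = 0.211, 0.102, 0.199, 0.180 and 0.637). H4bc24 measured 0, 0.04 and 0.56 TPM with rMSA and 18.5, 0.01 and 0.92 TPM with rMSA + insulin.

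With rMSA, 17 of 24 genes of cholesterol synthesis fell and 0 rose (limma adjusted p under 0.05), beside 30.8% and 12.0% of all tested genes, and the list's median log2 fold change was -0.37. Of 28 genes of the integrated stress response, 19 rose and 1 fell, with a median of 0.57. Of 24 FOXO targets, 16 fell and 2 rose, among them Selenop (log2 fold change -1.56, limma adjusted p = 0.00493). The rMSA + insulin libraries also had lower values for long transcripts, with medians of -0.32, -0.54 and -0.17 against vehicle for transcripts over 5000 bases. The deviations of same-numbered insulin and rMSA + insulin libraries from their group means correlated across genes at 0.0948, 0.794 and 0.809 for numbers 1 to 3. The part of either in these results was not tested.

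A test of the difference itself, the interaction in the 12-library fit, found 4 genes with a larger insulin difference with rMSA than without (0.0373%) and 0 with a smaller one at an adjusted p under 0.05. They were Ier3, Gdf15, Atf3 and Itgb7, and none was found under the 5 rescalings or without any 1 vehicle, rMSA or rMSA + insulin library. None of the 31 genes on which the insulin libraries agreed was among them. The nearest was Gsta1, with an interaction log2 difference of 1.31 (limma adjusted p = 0.0536), followed by Car6 with 1.70 (limma adjusted p = 0.434). Wfdc3 and Mt2 leaned the other way, with interaction log2 differences of -0.99 and -0.72 (limma adjusted p = 0.499 and 0.563).

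**Figure D5:**
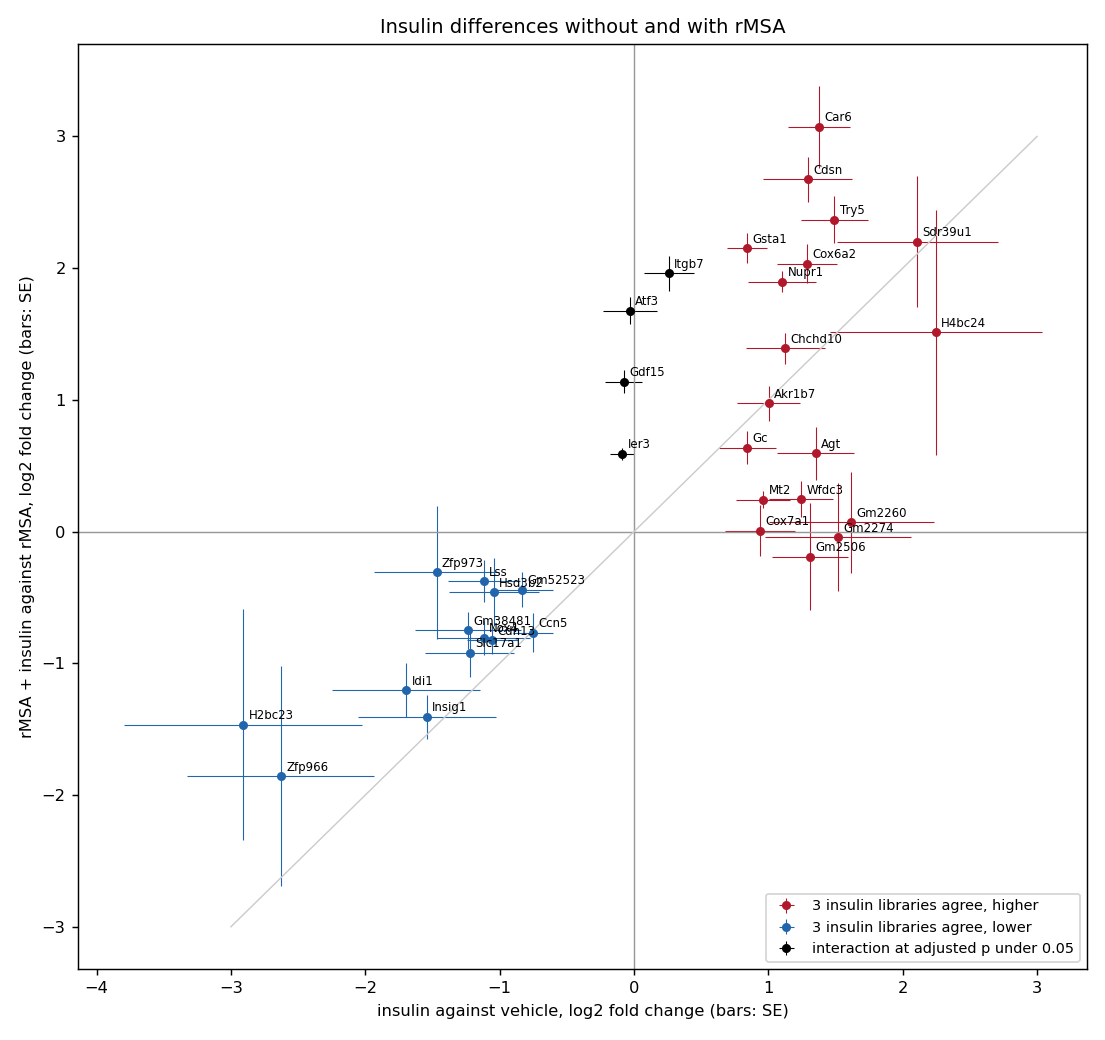
Log2 fold change of rMSA + insulin against rMSA (vertical axis) plotted against that of insulin against vehicle (horizontal axis), with SE bars from limma, for the 18 higher (red) and 13 lower (blue) genes on which the insulin libraries agreed and for the 4 genes with an interaction at an adjusted p under 0.05 (black). The gray line marks equal values, and Car6 lies at 1.38 and 3.07, Insig1 at -1.54 and -1.41, and Atf3 at -0.03 and 1.68.

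The genes that most parted insulin library 3 from the other 2 were mostly low or poorly described ones, besides H2bc23 and Sdr39u1. Gm52236 measured 75.1, 66.8 and 33.6 TPM with vehicle, was listed at 0 in insulin libraries 1 and 2, and stood at 53.0 TPM in insulin library 3. Zbed6, a zinc finger gene that lies within an intron of another gene, measured 10.8, 6.79 and 3.33 TPM with vehicle and 0.23, 0.06 and 4.78 TPM with insulin, and Gm52446 8.36, 10.3 and 7.84 TPM against 1.52, 1.45 and 10.7 TPM. Fam177a2 measured 0.74, 0.35 and 12.3 TPM with vehicle and 0.86, 0.60 and 14.0 TPM with insulin, so that 1 vehicle library shared the high value of insulin library 3. In the other direction, Tmem255a measured at most 0.11 TPM with vehicle and 2.47, 3.31 and 0.10 TPM with insulin, and Gm2446 and Gm2436, which had the same values and may share reads, 0.44, 0.37 and 0.23 TPM against 3.51, 5.02 and 0.59 TPM. Gstp2 measured 0, 1.01 and 0 TPM against 2.92, 2.75 and 0.51 TPM. Tmem255a split the rMSA + insulin libraries in the same way, with 2.04 and 3.87 TPM in libraries 1 and 2 and 0 TPM in library 3.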

How the data were processed

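RNA from 12 AML12 samples was sequenced on a BGISEQ platform after depletion of ribosomal RNA. The deposited values are TPM to 2 decimals. Tools named in the submitters' processing notes are STAR 2.5.2b, Trimmomatic 0.33, Subread 1.6.0 and featureCounts, on GRCm38. How the authors computed TPM, from which annotation and with which strand setting, is not stated there. Read depth and counting precision are unknown, since TPM holds neither, and a count model could not be run.

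Genes averaging 1 TPM or more across the 6 libraries were tested on log2(TPM + 1) with limma 3.58.1 in R 4.3.3 (1 mean per group, a mean-variance trend, Benjamini-Hochberg adjustment). The interaction used all 12 libraries. Positions and promoters came from RefSeq (15527 genes matched) and transcript lengths from GENCODE (98.3% of the tested genes). The scripts were tested on simulated data.

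Genes named were up to 15 higher and 15 lower agreeing genes by their smallest difference, up to 4 members of each of 36 lists, textbook insulin targets, the 5 genes each way that part insulin library 3 most, the 5 agreeing genes with the smallest interaction p, and cell type markers. Gc, further list members and the genes of insulin library 3 alone were named after their values were seen. Members, lists and rules were chosen with earlier results of these data known. Results were computed again under 15 other settings and without libraries in turn. A few members are counted in their lists but not reported by name here.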

Additional observations from a re-analysis of the deposited data

Results flagged for a closer look

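The insulin difference with rMSA exceeded that without rMSA in 4 genes by the limma interaction test over 12 libraries. Atf3, a stress-induced transcription factor, had an interaction log2 difference of 1.71 (SE 0.23, limma adjusted p = 0.047). It measured 33.1, 37.7 and 32.3 TPM with vehicle, 25.6, 35.2 and 41.8 TPM with insulin, 15.5, 17.1 and 14.7 TPM with rMSA, and 46.3, 57.3 and 54.7 TPM with both. Gdf15, a secreted stress signal, had a difference of 1.21 (SE 0.14, limma adjusted p = 0.0209), with 25.3 to 27.3 TPM with vehicle, 23.3 to 27.8 TPM with insulin, 17.8 to 21.0 TPM with rMSA and 42.1 to 43.5 TPM with both. In both genes the level with rMSA alone was below that of vehicle and the level with both agents was above it.

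Ier3, an early response gene, had a difference of 0.68 (SE 0.08, limma adjusted p = 0.0209), with 151 to 154 TPM with insulin beside 155 to 169 TPM with vehicle, and 791 to 795 TPM with both agents beside 523 to 533 TPM with rMSA. Itgb7, an integrin subunit, had a difference of 1.70 (SE 0.23, limma adjusted p = 0.047), with 1.79 to 1.92 TPM with vehicle, 1.71 to 3.02 TPM with insulin, 5.25 to 6.72 TPM with rMSA and 22.8 to 28.9 TPM with both. The count of 4 became 0 under each of the 5 rescalings and without any single vehicle, rMSA or rMSA + insulin library.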

How the results depend on the processing

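Read depth is unknown, low genes are understated on the log2(TPM + 1) scale, and with 3 libraries a treatment of which 1 insulin library differs from the others, the test of insulin against vehicle depends on that library. The count of 0 genes at an adjusted p under 0.05 became 5764 without insulin library 3 and otherwise stayed at 0 when 1 library was left out (range 0 to 5764, and 0 to 2010 with a 2-fold change). With array weights by the gene-by-gene method, since the default method did not converge, it was 7490 (644 at 2-fold), but the weights of 4.113, 0.1206 and 0.1074 left the insulin group close to insulin library 1 alone. Without insulin libraries 1 and 2 it was 13 (8 at 2-fold), and there 5339 genes had separate groups and 101 agreed. Genes with separate groups ranged from 1937 to 8356 when 1 library was left out, 3520 without vehicle library 3. Agreeing genes ranged from 28 to 2864, with 50 without insulin library 1. They numbered 52 with a pseudocount of 0.1 TPM, 11 with 5 TPM, and 3 at 2-fold in each library. The interaction count of 4 was 2 with a pseudocount of 0.1 TPM, 7 with 5 TPM, 2 with no filter, 3601 with array weights, 7 without insulin libraries 1 and 2, and 0 with median centring, quantile normalization, rescaling without ribosomal protein genes or the 50 highest genes, the length trend removed, or the replicate block. It ranged from 0 to 338 when 1 library was left out, 12 without insulin library 2 and 338 without insulin library 3. For rMSA + insulin against rMSA, the 4589 genes became 7241 with array weights, 410 in the 12-library fit, 1965 with the replicate block, and 1627 to 5106 without 1 library. Beyond the fewer samples in a fit, the cause was not tested.

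Same-numbered vehicle and insulin libraries had deviations that correlated at 0.0235, -0.064 and -0.664, so the numbers were not taken as pairs, and with the replicate block the count for insulin against vehicle stayed at 0. Of the log2 fold changes of named genes, 21 reversed. With median centring Ghr was at 0.01533, Pfkm at 0.1271, Eif3f at 0.08716, Cdkn2a at 0.1657, Col6a1 at 0.03367 and Cd14 at 0.1252. With quantile normalization Ghr was at 0.07658 and Col6a1 at 0.02948, and with the length trend removed Psmb6 was at -0.1431. Fam177a2 was at -0.2048 with array weights, -0.2596 without vehicle library 1, -0.4427 without vehicle library 2 and -0.8695 without insulin library 3, and ranged up to 1.209 without vehicle library 3. Without insulin libraries 1 and 2, Gpt2 was at 0.1721, Canx at 0.01338, Cd14 at 0.06372, Irs2 at 0.01212, Insr at 0.00734, Myc at 0.225, Egr1 at 0.2125 and Gm52446 at 0.2638. The other values of named genes kept their direction, 1695 on the same side of the threshold and 182 newly past it.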
